A study of Homo sapiens with 6 samples.

Results

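STK11, also called LKB1, is a tumour suppressor kinase, and AMPK is the energy-sensing kinase that it switches on. The genes described here are STK11, its partners STRADA and CAB39, and 6 subunit genes of AMPK, namely PRKAA1, PRKAA2, PRKAB1, PRKAB2, PRKAG1 and PRKAG2. They were taken by gene name from 2 deposited tables of FPKM per gene, and all 9 were listed in both, out of 17721 genes in either table and 14270 in both. FPKM scales the fragments of a gene by its transcript length and by the sequencing depth. The set was chosen by the FPKM of STK11, which was far lower in the second table, so the value of STK11 is a description of the gene that prompted the choice.

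The labels described 6 RNA samples of U2OS, an established human osteosarcoma cell line. There was 1 input from shNC control cells of wild-type (WT) genotype and 1 from cells with DNMT1 knocked down (shDNMT1). From each kind of cell, 2 further samples held RNA that came down with a mutant of NSun2, an RNA cytosine methyltransferase, and the protocol states that a plasmid of this mutant had been introduced into both kinds of cell. Neither table names a sample, a genotype, or input against precipitate, so no group was compared, and the first and the second table are only names for them. Each gene had 1 value per table, so no difference below has a replicate check, an SD or a test.

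LKB1 is active as a complex with STRADA or its paralog STRADB, pseudokinases that hold it in its active shape and keep it in the cytoplasm, and with the scaffold protein CAB39, also called MO25. The complex phosphorylates the activation loop of AMPK and of a family of AMPK-related kinases. AMPK is a trimer of a catalytic alpha subunit, a beta subunit that binds glycogen and joins the other subunits, and a gamma subunit that senses AMP, ADP and ATP. When energy is short, active AMPK restrains lipid and protein synthesis and promotes autophagy and glucose use. Loss of STK11 is a frequent event in several carcinomas and causes Peutz-Jeghers syndrome.

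The tables held 15167 and 16824 genes. Log2 ratios are given as second over first after adding a pseudocount of 1 FPKM to each value, which understates differences of low genes. The median log2 ratio of all genes in both tables was 0.05, the middle 90% lay between -0.70 and 0.81, and 54.8% of genes were higher in the second. DNMT1, the target of the knockdown, had 23.3 and 9.36 FPKM, in that order. Of 9 mesenchymal and osteoblast markers, 3 were in both tables, namely vimentin (VIM, 262 and 407 FPKM), ALPL (78.4 and 38.0 FPKM, log2 ratio -1.02) and COL1A1 (3.04 and 0.45 FPKM, -1.48). RUNX2, BGLAP and SPARC were in the second only at no more than 0.81 FPKM, and COL1A2, SPP1 and SP7 were in neither. Of 5 epithelial markers, KRT8 (1597 and 1410 FPKM) and KRT18 (1293 and 1196 FPKM) were abundant in both tables and made up nearly all of the list's sum of 2901 and 2607 FPKM. The mesenchymal list summed to 343 and 446 FPKM, mostly VIM and ALPL. The other 3 epithelial markers were low. CDH1, the epithelial cadherin, had 8.42 and 0.39 FPKM (log2 ratio -2.76). EPCAM had 2.20 and 0.55 FPKM (-1.04), and KRT19 had 0.20 FPKM in the first table and no row in the second. The blood and endothelial markers PTPRC and PECAM1 were in neither table. With 6 of 9 mesenchymal markers absent from at least 1 table and 2 keratins among the abundant mRNAs, the markers go against the osteosarcoma label in part, and whether the tables come from U2OS cells is in doubt. The table with the low STK11 value was also the one with less CDH1, and the part of these markers in the values of STK11 was not tested.

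STK11 was the only one of the 9 genes that differed by 2-fold or more on this scale. It is the catalytic subunit of the LKB1 complex (ENSG00000118046; its locus in the tables was chromosome 19, 1177558 to 1238027, hg38, and the RefSeq gene spans 1205778 to 1228431). Its FPKM was 24.8 in one table, the first, and 1.33 in the other. The log2 ratio was -3.47, and without the pseudocount the first value was 18.7 times the second. In RNA from bulk cells, fewer cells with an mRNA and less of it per cell cannot be told apart. Because neither table names input or precipitate, less RNA recovered with the NSun2 mutant cannot be told apart from these either. STK11 ranked 2524 among the genes of the first table and 10828 among those of the second. Over all genes in both tables, 1.68% were lower by 2-fold or more in the second and 2.04% higher by as much. Among the 2897 genes whose level in the first table lay within 2-fold of that of STK11, 30 were lower by 2-fold or more in the second, and 1, STK11 itself, by 8-fold or more. These genes were matched on the table in which STK11 was high, and STK11 was chosen for its low second value. Its place among them is therefore a description and lends no support.

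The 250 bases before the RefSeq start of STK11 are shown beside those of PRKAG2, the AMPK subunit gene with the highest ratio in the other direction, because the study concerns the enzyme that maintains methylation at CG sites. PRKAG2 has 5 annotated starts, and the sequence is that before the outermost one, where the RefSeq gene begins. Both run 5′ to 3′ on the strand of the gene, and capitals mark each CG.
STK11, chr19:1205528-1205777, plus strand: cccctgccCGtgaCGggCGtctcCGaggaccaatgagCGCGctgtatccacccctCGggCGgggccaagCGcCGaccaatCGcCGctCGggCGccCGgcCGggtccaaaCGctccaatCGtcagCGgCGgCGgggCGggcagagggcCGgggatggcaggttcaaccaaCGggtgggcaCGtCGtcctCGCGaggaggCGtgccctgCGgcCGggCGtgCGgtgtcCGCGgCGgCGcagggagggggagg
PRKAG2, chr7:151877116-151877365, minus strand: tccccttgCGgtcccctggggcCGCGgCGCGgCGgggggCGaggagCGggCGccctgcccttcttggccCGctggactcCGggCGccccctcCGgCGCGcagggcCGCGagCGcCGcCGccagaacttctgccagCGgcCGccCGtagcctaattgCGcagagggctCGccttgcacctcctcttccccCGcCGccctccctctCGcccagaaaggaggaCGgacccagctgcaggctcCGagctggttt
CG, which reads the same on both strands, occurred 37 times in the sequence of STK11 and 30 times in that of PRKAG2, from RefSeq on GRCh38.p14. The median over 35116 RefSeq promoter windows of this length, which include inner starts of genes, was 11, and 93.9% of them held at least 1. Windows with at least as many made up 4.0% of all for STK11 and 12.4% for PRKAG2. At the inner starts of PRKAG2 the count ran from 2 to 41. Both RefSeq genes begin next to CG-rich sequence, and whether CG count bears on the FPKM of either was not tested. The locus of STK11 started at 1177558, before its RefSeq start at 1205778, and the transcript start behind its FPKM is not known. In 6 of the 9 genes a window ended at the start of the RefSeq gene, and the others of these were PRKAA2 (39), CAB39 (33), PRKAB2 (27) and PRKAG1 (25). The windows of PRKAA1 and PRKAB1 lay mostly within the gene and were left out, and none was found for STRADA. DNA methylation itself was not analysed here.

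**Figure D1:**
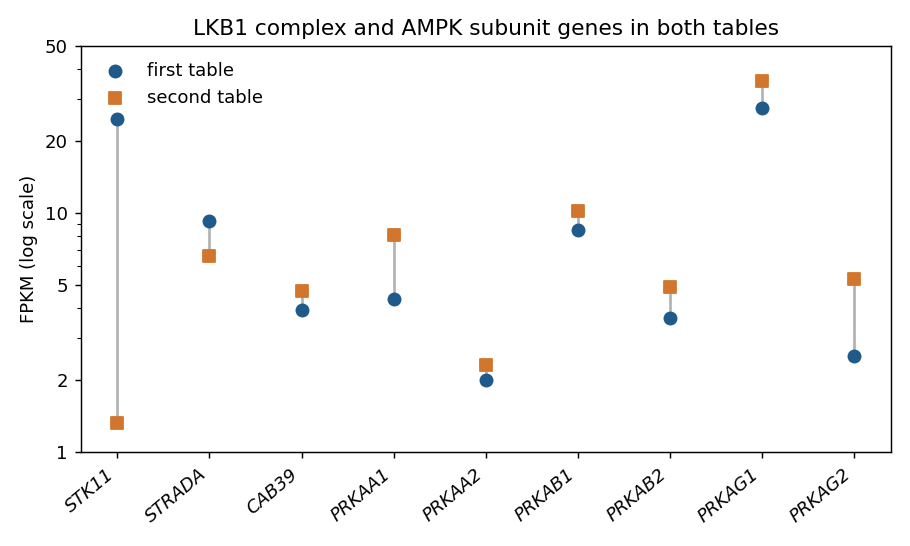
FPKM on a log scale (y) for each of the 9 genes (x) in the first table (circles) and the second (squares), joined by a line, with 1 value per gene and table. STK11 goes from 24.8 to 1.33, while each of the other 8 genes lies within a factor of 2.10 between the tables.

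The locus of STK11 also held CBARP, a regulator of voltage-gated calcium channels. In RefSeq the 2 genes lie on opposite strands and overlap by 145 bases at their ends, and the sources used here do not say whether counting used strand. CBARP was listed at 4.12 and 3.16 FPKM (log2 ratio -0.30). The sum over the locus was 28.9 and 4.48 FPKM (log2 ratio -2.45), and STK11 made up 85.8% and 29.6% of it. CBARP was no higher in the table in which STK11 was low, and how fragments were divided between the 2 genes was not tested. FPKM is scaled by transcript length, so the sum is not a count of fragments at the locus.

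The genes next to this locus had values of similar size in both tables. On one side were SBNO2 (47.8 and 37.5 FPKM), the glutathione peroxidase GPX4 (330 and 251 FPKM), and ARHGAP45 and the RNA polymerase II subunit POLR2E (65.3 and 56.5 FPKM), which share a locus. On the other side were the ATP synthase subunit ATP5D (283 and 207 FPKM), MIDN (54.0 and 55.8 FPKM) and the cold-inducible RNA-binding protein CIRBP (42.5 and 41.8 FPKM) with its antisense transcript CIRBP-AS1. The log2 ratios of these 8 genes ran from -0.45 for ATP5D to 0.69 for CIRBP-AS1, which was under 1.5 FPKM in both tables. Of 39 genes in both tables at other loci within 500 kb, 27 were lower in the second, against 45.2% of all genes. Their median was -0.20, with 1 at least 2-fold lower and 0 at least 2-fold higher, against 1.68% and 2.04% of all genes. The low value of STK11 in the second table was thus not shared by the genes around it, although the region as a whole stood somewhat below the median of all genes.

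**Figure D2:**
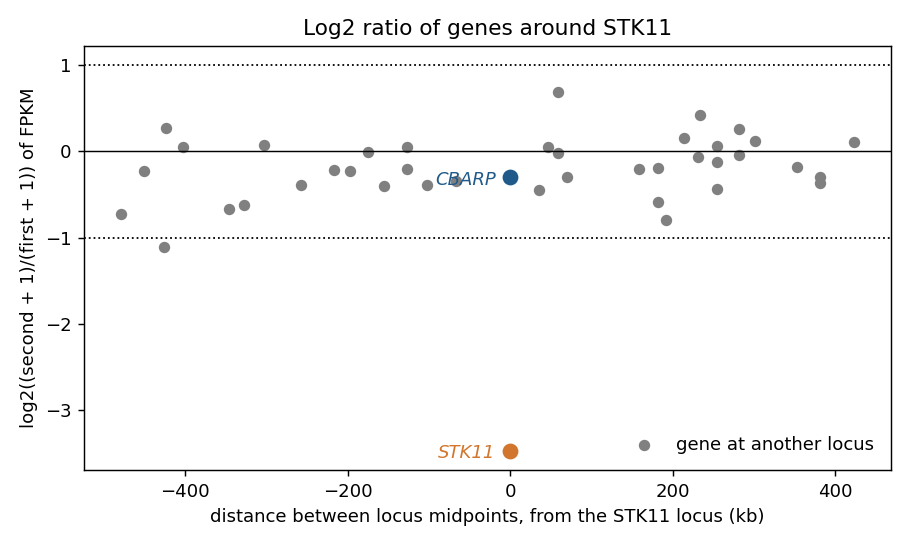
Log2 ratio of second over first (y) against the distance in kb between locus midpoints, measured from the STK11 locus (x), with 1 point per gene in both tables. STK11 lies at -3.47 and CBARP at -0.30 at the same locus, and the 39 genes at other loci run from -1.11 to 0.69. Dotted lines mark 2-fold.

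STRADA, the pseudokinase partner (ENSG00000266173; chromosome 17, 63702832 to 63819317), was listed at 9.25 and 6.65 FPKM (log2 ratio -0.42). It was the other gene of the set that was lower in the second table, and 13.7% of all genes had a lower ratio. It shares its locus with CCDC47 (5.82 and 6.52 FPKM) and the RNA helicase gene DDX42 (8.29 and 10.3 FPKM). The sum over these 3 genes was 23.4 and 23.5 FPKM (log2 ratio 0.01), with CCDC47 and DDX42 both higher in the second table. The 3 genes do not overlap in RefSeq and FPKM is scaled by transcript length. The sum therefore does not bear on the value of STRADA, and how fragments were divided was not tested. The paralog STRADB, which is not one of the 9 genes, was listed at 3.14 and 3.62 FPKM.

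CAB39, the scaffold that stabilises LKB1 with STRADA (ENSG00000135932; chromosome 2, 230712845 to 230821075), was alone at its locus and was listed at 3.94 and 4.74 FPKM (log2 ratio 0.22). Its paralog CAB39L was near the floor in both tables, at 0.49 and 0.048 FPKM. On the FPKM scale, STK11 stood at 2.68 times STRADA and 6.30 times CAB39 in the first table, and at 0.20 and 0.28 times them in the second. STK11 thus had the highest FPKM of these 3 genes in the first table and the lowest in the second. In the second, both partners were still listed at over 4 FPKM.

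All 6 AMPK subunit genes were higher in the second table, with a median log2 ratio of 0.35 against 0.05 for all genes, and none of them differed by 2-fold on the log2(FPKM + 1) scale. After subtracting the value for all genes, all 6 ratios stayed above 0, from 0.09 for PRKAA2 to 0.78 for PRKAG2. The third gamma gene, PRKAG3, known mainly from skeletal muscle, was in neither table.

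The catalytic subunit alpha1 is encoded by PRKAA1 (ENSG00000132356; chromosome 5, 40759379 to 40798374), which was alone at its locus. It was listed at 4.37 and 8.12 FPKM (log2 ratio 0.77), and 93.9% of all genes had a lower ratio. PRKAA2, which encodes alpha2 (ENSG00000162409; chromosome 1, 56645322 to 56715335), was the least abundant subunit gene in both tables, at 2.01 and 2.32 FPKM, with a log2 ratio of 0.14. The sum of the alpha genes was 6.37 and 10.4 FPKM, of which PRKAA1 made up 68.5% and 77.8%. The difference in the alpha sum between the tables thus lay mostly in PRKAA1.

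PRKAB1, the gene of beta1 (ENSG00000111725; chromosome 12, 119334712 to 119681630), was listed at 8.49 and 10.2 FPKM (log2 ratio 0.24). Its locus in the tables is much longer than the RefSeq gene (119667952 to 119681619) and takes in CCDC60 and TMEM233, which were listed in neither table. PRKAB2, the gene of beta2 (ENSG00000131791; chromosome 1, 147155106 to 147172550), was listed at 3.66 and 4.90 FPKM (log2 ratio 0.34). PRKAB1 made up 69.9% and 67.6% of the beta sum, so the make-up of this class was close in both.

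PRKAG1, the gene of gamma1 (ENSG00000181929; chromosome 12, 48995149 to 49059774), was the most abundant of the 9 genes in both tables, at 27.5 and 35.6 FPKM, with a log2 ratio of 0.36. It shares its locus with the histone methyltransferase gene KMT2D (34.8 and 31.4 FPKM) and with DDN (1.26 and 0.90 FPKM). The sum over the locus was 63.6 and 67.9 FPKM (log2 ratio 0.09). PRKAG2, the gene of gamma2, whose mutations cause a glycogen storage cardiomyopathy (ENSG00000106617; chromosome 7, 151556111 to 151879223), was listed at 2.53 and 5.29 FPKM. Its log2 ratio of 0.84 was the highest of the set, and without the pseudocount the second value was 2.10 times the first, past 2-fold. The antisense transcript PRKAG2-AS1 at the same locus had 0.72 FPKM in the second table and no row in the first. How far it overlaps PRKAG2 was not computed, and whether counting used strand is not known. How fragments were divided between the 2 was not tested. PRKAG1 made up 91.6% and 87.0% of the gamma sum.

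**Figure D3:**
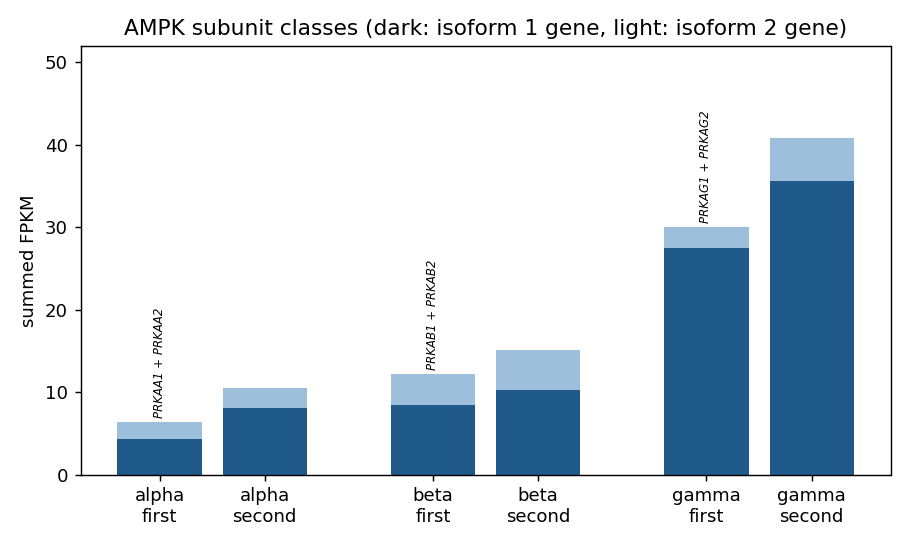
Summed FPKM (y) of the alpha, beta and gamma subunit genes of AMPK in the first and the second table (x), with the isoform 1 gene (PRKAA1, PRKAB1, PRKAG1) dark and the isoform 2 gene (PRKAA2, PRKAB2, PRKAG2) light. The sums are 6.37 and 10.4 for alpha, 12.2 and 15.1 for beta and 30.0 and 40.9 for gamma.

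Within each table the order of the subunit classes by FPKM was gamma, beta, alpha. In the first table the 9 genes ran from PRKAG1 and STK11 through STRADA, PRKAB1, PRKAA1, CAB39, PRKAB2 and PRKAG2 to PRKAA2. In the second table they ran from PRKAG1 through PRKAB1, PRKAA1, STRADA, PRKAG2, PRKAB2, CAB39 and PRKAA2 to STK11. With 1 value per table, whether neighbours in these orders differ beyond replicate spread cannot be told.

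The genes within 1 Mb of each of the 9 genes gave no common direction. Their median log2 ratio was -0.17 over 17 genes around PRKAG2 and 0.06 over 5 genes around PRKAA1, the subunit genes with the highest ratios. It was -0.20 over 71 genes around STK11, -0.06 over 16 around STRADA, -0.19 over 9 around CAB39 and 0.01 over 36 around PRKAG1. Around the other 3 genes it lay between -0.07 and 0.03.

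**Figure D4:**
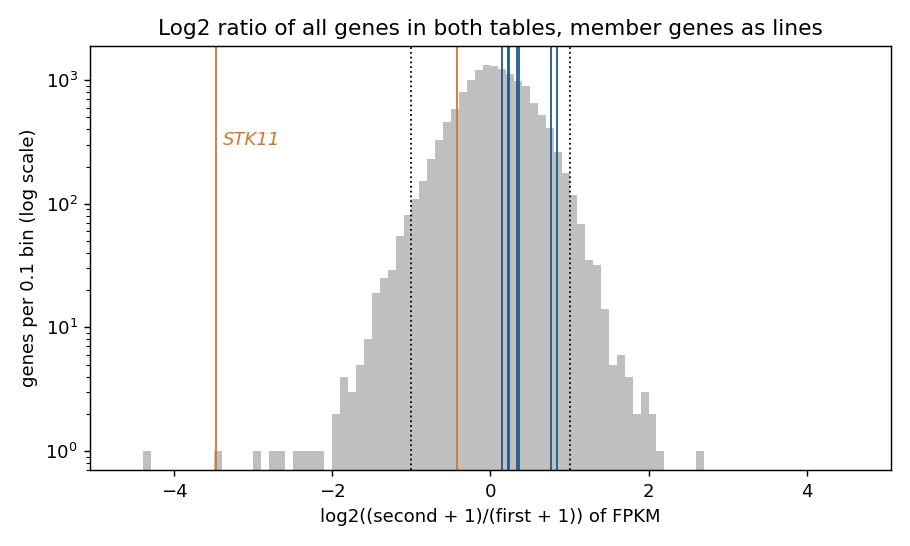
Number of genes per bin of 0.1 on a log scale (y) against the log2 ratio of second over first (x) for the 14270 genes in both tables (grey), with each of the 9 genes as a line, orange where lower and blue where higher in the second table, and dotted lines at 2-fold. STK11 lies at -3.47, with 1 gene below it, and the other 8 genes lie between -0.42 and 0.84.

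Of 7135 genes whose mean level exceeded the median of 4.93 FPKM, 1 had a lower ratio than STK11, the 7SK identifier (-4.38). STK11 was chosen for its low second value (1.33 FPKM) and passed this level only through its first (24.8 FPKM). Its place in this order is therefore a description and lends no support. The next above STK11 were SCARNA2 (-2.94), a guide RNA of Cajal bodies, PIK3CA (-2.69), the catalytic subunit of a phosphatidylinositol 3-kinase, and CGA (-2.28), the hormone alpha subunit. This likeness is that of 1 ratio over 2 tables. STK11 and the nearest 3 of these, 7SK, SCARNA2 and PIK3CA, shared a locus string with another identifier, while CGA was alone at its locus. Over all genes in both tables, 126 of 6667 that share a locus string and 114 of 7603 alone at theirs had a second value lower by 2-fold or more.

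Beyond the 9 genes, 65 genes of the pathway were looked at by role, of which 63 were in both tables. Of these, 30 were higher and 33 lower in the second table, against 54.8% and 45.2% of all genes. The median log2 ratio of the 63 was -0.02, and 55 lay within 1.5-fold, as did 80.0% of all genes. CGA was the gene at least 2-fold lower, and 0 were at least 2-fold higher, against 1.68% and 2.04% of all genes.

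The other kinases that activate AMPK were close in both tables. The calcium-dependent kinase CAMKK2, the most abundant of them, was listed at 9.32 and 9.24 FPKM, CAMKK1 at 6.45 and 6.66 FPKM, and MAP3K7, also called TAK1, at 1.47 and 1.82 FPKM. In the second table both CAMKK genes thus stood above STK11 in FPKM, and in the first table below it.

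All 12 AMPK-related kinases that LKB1 is known to phosphorylate were in both tables. In the second, 8 were higher and 4 lower, where 54.8% of all genes were higher, and the median log2 ratio was 0.10. Past 2-fold were 0 of the 12 in either direction, against 2.04% higher and 1.68% lower over all genes. SIK1, a salt-inducible kinase, was the most abundant, at 53.6 and 39.1 FPKM. MARK4, a kinase of microtubule-associated proteins, had the lowest ratio of them (9.59 and 4.92 FPKM, -0.84). BRSK2 had the highest (0.64), at 0.14 and 0.78 FPKM. The kinases downstream of LKB1 were thus listed in both tables, to either side of their level in the first.

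Substrates of AMPK divided into 11 higher and 10 lower in the second table, where 54.8% of all genes were higher. Their median was 0.04 and 0 were past 2-fold, against 2.04% higher and 1.68% lower over all genes. SREBF1, a transcription factor of lipid synthesis, was the most abundant, at 74.2 and 43.9 FPKM. ACACA, the acetyl-CoA carboxylase of fatty acid synthesis, was listed at 19.96 and 25.6 FPKM. The autophagy kinase ULK1 was listed at 19.3 and 14.4 FPKM. YAP1, a transcriptional coactivator of the Hippo pathway, had the highest ratio of the list, 0.86, at 11.5 and 21.7 FPKM. These are FPKM of RNA, from input or precipitate, and do not show phosphorylation by AMPK.

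Regulators of AMPK lay between -0.20 and 0.37 for the 8 in both tables, with the ubiquitin ligase component TRIM28 the most abundant at 392 and 342 FPKM. Chaperones and regulators of LKB1 lay between -0.52 and 0.29, with 3 higher and 4 lower, against 54.8% and 45.2% of all genes. The chaperone HSP90AB1, at 328 and 385 FPKM, was the most abundant of this list.

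LKB1 restrains the CRTC coactivators of CREB through the salt-inducible kinases, and these coactivators act on target genes of CREB. Of 12 such genes, 9 were lower and 3 higher in the second table, where 45.2% of all genes were lower and 54.8% higher, and the median was -0.30 against 0.05 for all genes. CPS1, the carbamoyl phosphate synthetase, was the most abundant at 82.6 and 68.8 FPKM. NR4A1, a nuclear receptor induced through CREB, was listed at 39.1 and 23.8 FPKM, and the noncoding RNA LINC00473 at 20.8 and 18.8 FPKM. CGA was listed at 15.1 and 2.31 FPKM, and CREM, at 13.7 and 17.1 FPKM, had the highest ratio of the list (0.30). The list held 1 gene, CGA, at least 2-fold lower and 0 at least 2-fold higher, beside 1.68% and 2.04% of all genes.

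**Figure D5:**
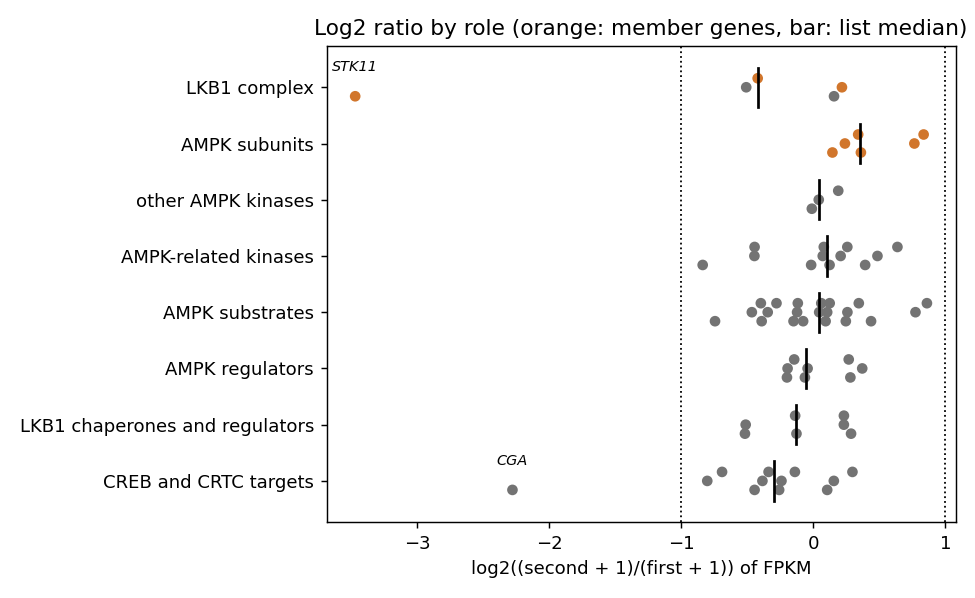
Log2 ratio of second over first (x) for the genes of each role (y), with the 9 described genes in orange, the others in grey, list medians as black bars and dotted lines at 2-fold. STK11 (-3.47) and CGA (-2.28) are the points beyond 2-fold.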

How the data were processed

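The labels describe 6 RNA samples of U2OS cells. The deposited FPKM values, per the file headers, are 2 tables with a gene identifier, gene name, locus and FPKM. No source used here names the tool that made the FPKM. Per the submitters' processing notes, the tools were MACS 1.4.2, BWA 0.7.13 and cutadapt 1.12 and the build hg38, with no role stated. Neither table could be tied to a sample, and whether samples were pooled is not given. The genes and lists were chosen with earlier results of these data known.

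Log2 ratios used log2((second + 1)/(first + 1)). No filter on level was applied, and 2-fold was the threshold for counts. The ratio and count steps were run on simulated data without noise, which checks the arithmetic only. Named genes were the 9 members, every list gene past 2-fold with the most abundant of each list, genes sharing a locus with a member, the 3 nearest to STK11 on either side with ties, and the 3 nearest in ratio. Further list genes were picked as examples with their values known. Locus starts were counted from 0 and are printed from 1: with 1 added, 1824 genes alone at a locus started where RefSeq has them, and without it 148 did. A locus string was shared by 47.5% of identifiers, and fragments there could be divided between genes upstream. No counts were given, so the depth is unknown. Among 2354 genes under 1 FPKM in both tables, log2 ratios without pseudocount clustered near -1.1 (154 genes in a bin of 0.1) and -0.1 (135 genes), which leaves the relative depth unresolved. Promoter sequence is from RefSeq, GRCh38.p14. Calculations used Python 3.11.15 with pandas 2.3.3 and numpy 2.4.6.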

Additional observations from a re-analysis of the deposited data

How the results depend on the processing

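No paired analysis was possible because neither table names a replicate. With 1 value per table there is no replicate spread, so a ratio was counted as moved when it changed by over 1.5-fold, and a count when it changed by over 1.5 times. Of 62 recomputed values, 49 stayed within these limits and 13 moved. A change of sign was looked for only in ratios past 2-fold, which among the 9 genes means STK11, and 0 were seen. A changed pseudocount cannot turn a sign, and centring shifted ratios by only 0.05 beside the -3.47 of STK11. The 0 therefore carries little weight. The log2 ratio of STK11 became -4.13 with a pseudocount of 0.1, -4.23 with none (a setting chosen after seeing the data) and -2.45 with the sum over its locus. The smaller pseudocounts enlarge every ratio by construction. PRKAG2 then passed 2-fold, so that 1 of the 9 genes was at least 2-fold higher with a pseudocount of 0.1 (log2 ratio 1.04) and 1 with none (1.07). The other pathway genes past 2-fold numbered 2 higher (TBC1D4 and BRSK2) and 4 lower (CGA, CAB39L, NR4A2 and PDE4B) with a pseudocount of 0.1. Over all genes, 291 higher and 240 lower became 1058 and 973 with a pseudocount of 0.1, 121 and 62 above the median mean level, and 167 and 114 among genes alone at their locus, where fewer genes enter by construction. Centring gave 233 and 286, which turns the excess of higher genes into one of lower genes.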

Other observations

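CDKN2A, the gene of the cell cycle inhibitor p16, is known to be silent in U2OS. Here it had 155 and 119 FPKM, ranking 380 and 492 among the genes of each table. The gene was looked up because the mesenchymal markers were sparse. The markers did not all go 1 way. VIM (262 and 407 FPKM) and ALPL (78.4 and 38.0 FPKM) were abundant, and the epithelial CDH1, EPCAM and KRT19 were low. Beside the abundant KRT8 and KRT18 and the other, sparse mesenchymal markers, CDKN2A adds to the doubt whether these values describe U2OS cells. That doubt bears on every FPKM given here. No table was tied to a sample from the CDKN2A value.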
